A study of Mus musculus with 27 samples.

Results

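The genes described here mark D2 neurons, the striatal projection neurons that carry the dopamine receptor D2. The 7 listed were the receptor genes Gpr6 and Gpr52, the transcription factor gene Sp9, the enzyme gene Upb1, the secreted protein gene Nell1, the receptor phosphatase gene Ptprm and the guanylate cyclase subunit gene Gucy1a1. They were looked up by symbol, and each gene was read from 1 probe set, that of the highest mean across the 27 arrays. Of the 7, 5 had a probe set under their symbol in the array annotation used (of 18193 genes in all), and Gpr52 and Sp9 are not analysed here. All 5 passed the filter on low values (a log2 value above 6 in 3 arrays or more), as did 12017 genes in all. Upb1 passed through its D2 arrays: 1 of 6 D1 control arrays and 0 of 7 D1 mutant arrays exceeded 6.

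Messenger RNA on tagged ribosomes was taken from the striatum of male mice of 2 to 5 months, on a background that mixes C57BL/6 and 129/Sv, by translating ribosome affinity purification (TRAP). In this method a GFP-tagged ribosomal protein, L10a, is made in 1 neuron type and pulled down with the messages it carries. The Drd1-TRAP; G9a fl/fl controls gave 6 D1 arrays (2 saline, 4 cocaine) and the Drd2-TRAP; G9a fl/fl controls 7 D2 arrays (3 saline, 4 cocaine). The mutants also carried Drd1-Cre or Drd2-Cre, with 7 arrays in each subtype (3 saline, 4 cocaine). Every mouse therefore carried floxed G9a (Ehmt2), the gene of a histone H3 lysine 9 methyltransferase, and a ribosome tag, and genotype also stands for the presence of the Cre transgene. The genotype label of the D2 mutants writes the tag without its number, as Drd-TRAP. Saline or cocaine (20 mg/kg/day) was given in 8 injections, and tissue was taken 2 h after the last. Tag and Cre in a mouse follow the same receptor gene, and Drd2 is also expressed by cholinergic interneurons of the striatum.

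D1 and D2 neurons together make up most of the striatum and send their axons along the direct and the indirect pathway. In D2 neurons the dopamine receptor lowers cyclic AMP, while receptors such as Adora2a, Gpr6 and Gpr52 raise it. G9a adds methyl groups to histone H3 at lysine 9, a mark linked to silent genes, and it works in a complex with its relative GLP. Upb1 encodes beta-ureidopropionase, the last enzyme of pyrimidine base breakdown. Ptprm encodes a receptor-type tyrosine phosphatase that binds its own kind on neighbouring cells, Nell1 a secreted protein with EGF-like repeats, and Gucy1a1 the alpha subunit of the soluble guanylate cyclase that nitric oxide activates.

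The regions just before the gene starts are printed for the 2 members that rose in D2 mutants, Upb1 and Ptprm, and for Gpr6, the member with the largest difference between subtypes. They hold the 250 bases before the start in RefSeq's mouse assembly GRCm38.p6: chr10:75406661-75406910 on the plus strand for Upb1, chr17:67354460-67354709 on the minus strand for Ptprm and chr10:41072291-41072540 on the minus strand for Gpr6. Capitals mark matches to a GC box (GGGCGG or its reverse CCGCCC) and to a cyclic AMP response element (TGACGTCA, the same on both strands). A TATA box (TATAAA or TTTATA) was searched too and is in none of the 3.
Upb1: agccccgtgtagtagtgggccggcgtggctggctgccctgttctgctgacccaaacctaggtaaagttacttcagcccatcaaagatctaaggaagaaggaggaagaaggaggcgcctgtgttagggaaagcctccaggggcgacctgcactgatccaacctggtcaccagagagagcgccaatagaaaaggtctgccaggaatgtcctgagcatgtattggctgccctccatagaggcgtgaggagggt
Ptprm: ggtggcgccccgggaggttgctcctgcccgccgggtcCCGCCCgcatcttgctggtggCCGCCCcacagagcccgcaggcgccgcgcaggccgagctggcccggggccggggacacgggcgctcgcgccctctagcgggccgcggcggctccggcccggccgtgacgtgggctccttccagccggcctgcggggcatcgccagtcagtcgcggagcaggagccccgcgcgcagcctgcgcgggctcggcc
Gpr6: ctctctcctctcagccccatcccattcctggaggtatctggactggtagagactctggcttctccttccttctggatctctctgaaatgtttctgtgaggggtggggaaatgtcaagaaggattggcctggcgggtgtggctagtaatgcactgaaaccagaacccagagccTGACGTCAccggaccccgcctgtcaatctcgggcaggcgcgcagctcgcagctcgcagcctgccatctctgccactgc

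The Ptprm stretch holds 37 CpG pairs, a count that 2.204% of 32851 mouse promoters reach, against 7 for Upb1, 9 for Gpr6 and a median of 6. Ptprm has 2 GC boxes, a motif in 32.74% of promoters of this length. Gpr6 has 1 cyclic AMP response element, which 1.546% of promoters hold. Upb1 has none of the motifs searched. The 2 members that rose thus differ in CpG count and motifs, and these matches describe letters only. Of the members not printed, Nell1 has 22 CpG pairs and 3 GC boxes. Gucy1a1 has 2 listed starts, with 12 and 10 CpG pairs and with 1 and 0 GC boxes.

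The target of the deletion was checked first. Ehmt2 ran from 10.67 to 11.01 with a median of 10.76 on the log2 scale in D2 controls, and from 8.68 to 9.38 with a median of 8.96 in D2 mutants. In D1 arrays it ran from 9.95 to 10.74 (median 10.46) in controls and from 8.03 to 9.37 (median 8.72) in mutants. The groups did not overlap in either subtype. Ehmt2 fell by 1.82 in D2 (adjusted p = 4.7e-11, limma) and fell by 1.79 in D1 mutants (adjusted p = 4.49e-10). The receptor genes that define the subtypes were each high in the arrays of their own label: group means of Drd2 lay between 12.71 and 13.47 in D2 arrays and between 6.72 and 6.88 in D1 arrays, and those of Drd1 between 9.84 and 10.55 in D2 arrays and between 12.50 and 12.71 in D1 arrays. D2 mutant cocaine replicate 4, whose source name calls it a control, had an Ehmt2 level of 8.96 and lay within the mutants. Ttr, an abundant choroid plexus message, was above 9.5 in 3 arrays (the third replicates of the D2 controls given cocaine, the D1 mutants given saline and the D1 controls given cocaine), and leaving these out ended no call of a member.

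D2 mutants were compared with D2 controls to ask whether loss of G9a shifts the markers of the neurons it is lost from. Upb1 and Ptprm rose by about the same amount on the log2 scale, 0.61 and 0.55, and Gpr6, Nell1 and Gucy1a1 did not pass the test. Thus 2 of 5 members rose and 0 of 5 fell, where 8.41% of all genes tested rose and 3.82% fell (12.2% in either direction, limma, adjusted p under 0.05). Without adjustment the same 2 of 5 had a p under 0.05, as had 3071 of the 12017 genes tested. The median change of the 5 was 0.18, beside 0.02 over all genes tested.

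Upb1, the pyrimidine enzyme gene, had log2 levels of 8.58, 8.87 and 8.88 in D2 control saline arrays and of 8.71, 8.67, 8.87 and 8.71 in D2 control cocaine arrays. In D2 mutants the levels were 9.30, 9.38 and 9.31 with saline and 9.18, 9.42, 9.58 and 9.43 with cocaine. All 7 mutant arrays lay above all 7 control arrays, whichever drug was given. The difference was 0.61 (SE 0.08, 95% interval 0.43 to 0.78, adjusted p = 1.17e-05), or 1.52-fold. It was 0.56 within saline arrays (adjusted p = 0.0104), where 4.08% of genes passed in either direction, and 0.66 within cocaine arrays (adjusted p = 0.000222), where 7.91% did. The saline call rested on 1 array: without D2 control saline replicate 1, the lowest control, the difference was 0.46 (adjusted p = 0.0818). Counting D2 mutant cocaine replicate 4 as a control, as its source name has it, left 0.53 over both drugs (adjusted p = 0.003) and ended the calls within saline (adjusted p = 0.0719) and within cocaine arrays (0.51, adjusted p = 0.066). The Ehmt2 level of that array, 8.96, lay among the D2 mutants (8.68 to 9.38) and below all D2 controls (10.67 to 11.01).

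Ptprm, the adhesion-type phosphatase gene, had log2 levels of 9.40, 9.30 and 9.40 in D2 control saline arrays and of 9.001, 9.32, 9.06 and 9.39 in D2 control cocaine arrays. D2 mutants had 9.81, 9.82 and 9.80 with saline and 9.82, 9.79, 10.02 and 9.78 with cocaine. Here too the 7 mutant arrays lay above the 7 controls, and 1 of them, cocaine replicate 3, stood somewhat above the rest. The difference was 0.55 (SE 0.09, 95% interval 0.37 to 0.73, adjusted p = 5.61e-05), or 1.46-fold. Within cocaine arrays it was 0.66 (adjusted p = 0.000277), and within saline arrays 0.44, which missed the threshold (adjusted p = 0.0533) although the groups of 3 did not overlap.

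Gpr6, an orphan receptor that raises cyclic AMP, had log2 levels of 12.96, 12.99 and 13.08 in D2 control saline arrays and of 12.46, 12.98, 12.66 and 13.11 in D2 control cocaine arrays. D2 mutants had 12.83, 12.89 and 12.90 with saline and 12.87, 12.75, 12.80 and 12.89 with cocaine. The mutants lay inside the range of the controls, and the controls given cocaine were spread the most (SD 0.30 against 0.07 in mutants given cocaine). The difference was -0.06 (SE 0.08, adjusted p = 0.706), and its 95% interval of -0.22 to 0.11 lies below the estimates for Upb1 and Ptprm.

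Nell1, the secreted protein gene, ran from 9.60 to 10.21 with a median of 9.91 in D2 controls and from 9.92 to 10.16 with a median of 10.13 in D2 mutants. The ranges overlapped, and the difference was 0.18 (SE 0.13, 95% interval -0.08 to 0.44, adjusted p = 0.396). D2 control cocaine replicates 1 and 3 had the 2 lowest levels of Nell1 among the 14 D2 arrays (9.60 and 9.66). The same 2 arrays had the lowest Gpr6 (12.46 and 12.66) and the lowest Ptprm (9.001 and 9.06). Replicate 3 is also 1 of the arrays with high Ttr (11.4), while replicate 1 is not (5.59).

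Gucy1a1 ran from 11.90 to 12.22 with a median of 12.17 in D2 controls and from 11.71 to 12.23 with a median of 11.97 in D2 mutants, and the ranges overlapped. The difference was -0.16 (SE 0.10, 95% interval -0.36 to 0.05, adjusted p = 0.347).

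**Figure D1:**
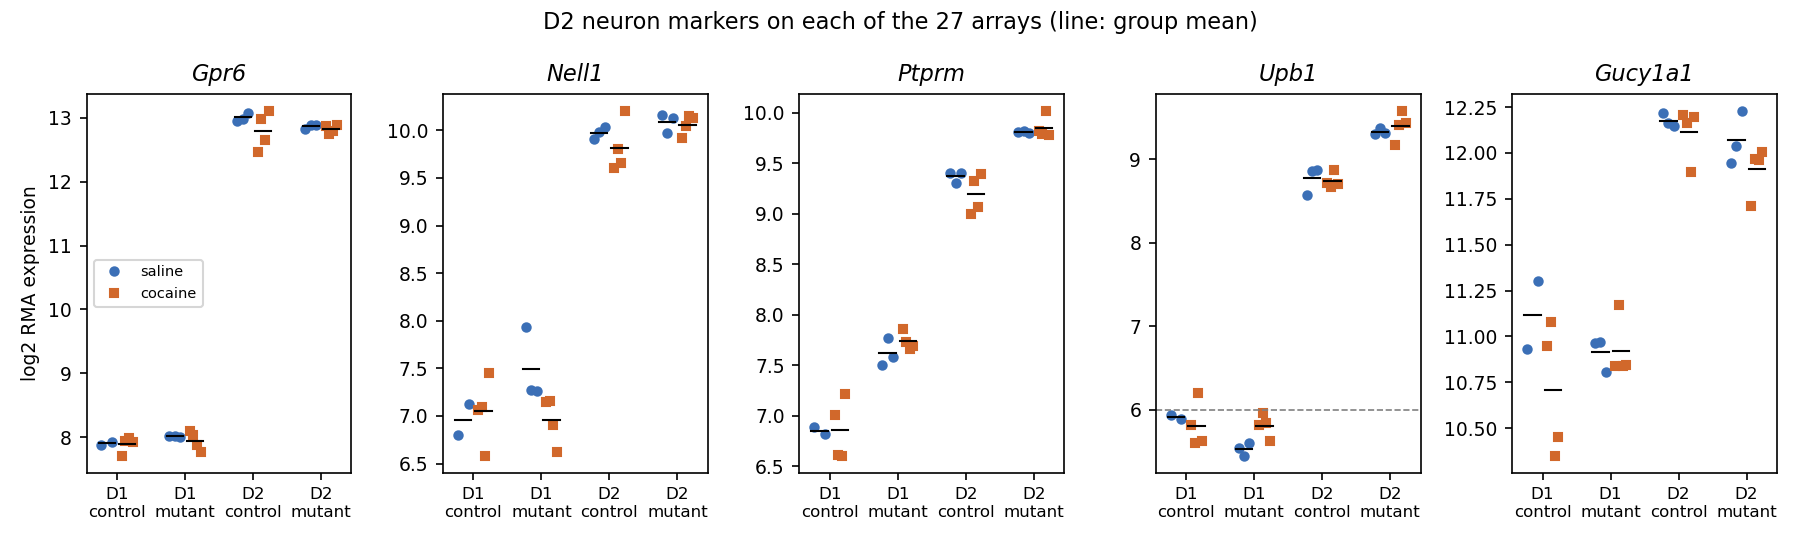
Log2 level of each of the 5 genes on each of the 27 arrays, by group of subtype, genotype and drug. Points are arrays and bars are group means. Upb1 and Ptprm lie higher in both D2 mutant groups than in either D2 control group, and Ptprm also lies higher in D1 mutants than in D1 controls.

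Gucy1a1 is the only member for which other probe sets passed the filter on low values, and its 3 probe sets were set side by side in a fit over 20136 probe sets. This comparison was added after the data were seen. Across both drugs none of the 3 passed in D2 mutants: 1434141_at, used above, changed by -0.16, 1420533_at by -0.28 (adjusted p = 0.297) and 1420534_at by -0.25 (adjusted p = 0.0763), while 9.32% of probe sets passed. All 3 were lower, and their unadjusted p in limma was 0.139, 0.0855 and 0.00875 in that order. Within cocaine arrays 1420533_at fell by 0.74 (SE 0.20, adjusted p = 0.0281), where 5.87% of probe sets passed. Its levels there were 10.40, 10.34, 10.27 and 10.56 in controls and 10.10, 9.38, 9.03 and 10.10 in mutants, so that D2 mutant cocaine replicates 2 and 3 were the low ones. In saline arrays it stood at 10.26, 9.90 and 10.11 in controls and at 10.10, 10.38 and 10.35 in mutants, a difference of 0.19 (adjusted p = 0.815). The other probe sets were also lower there and did not pass: 1420534_at changed by -0.30 (adjusted p = 0.128, unadjusted p = 0.0137) and 1434141_at by -0.21 (adjusted p = 0.433, unadjusted p = 0.136). The 3 probe sets thus had the same sign within cocaine arrays and differed in size. The second probe set of Nell1, 1447076_at, stayed below 6 in every group.

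**Figure D2:**
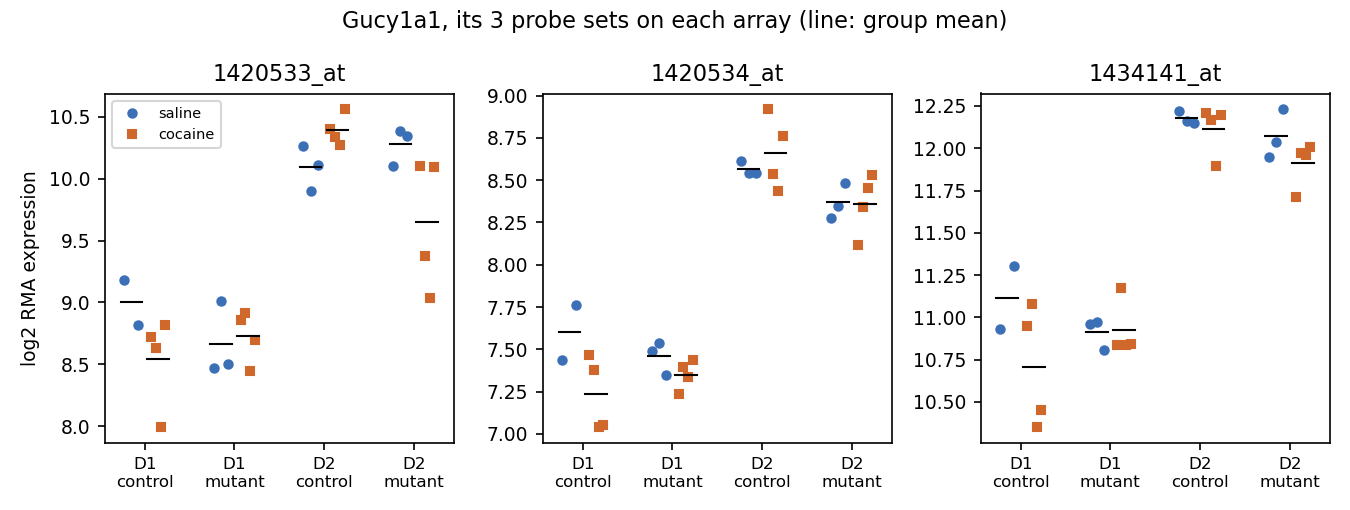
Log2 levels of the 3 probe sets of Gucy1a1 on the arrays of each group, with group means as bars. The probe set 1420533_at has 2 low arrays, at 9.38 and 9.03, among the D2 mutants given cocaine, and the other probe sets have no such pair.

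The same deletion in D1 neurons gives the second measure of the response. Here 1 of 5 members rose and 0 of 5 fell, where 3.1% of genes tested rose and 1.12% fell (4.22% in either direction, limma). Ptprm ran from 6.61 to 7.22 with a median of 6.85 in D1 controls and from 7.50 to 7.86 with a median of 7.69 in D1 mutants. The 2 ranges did not touch, although this gene is lower in D1 than in D2 arrays. The rise was 0.82 (SE 0.09, 95% interval 0.63 to 1.01, adjusted p = 6.56e-07), or 1.77-fold. Of the others, Nell1 differed by 0.22 (adjusted p = 0.541), Gpr6 by 0.08 (adjusted p = 0.781), Gucy1a1 by 0.01 (adjusted p = 0.992) and Upb1 by -0.19 (adjusted p = 0.355, unadjusted p = 0.044). Upb1 exceeded 6 in 1 of 6 D1 control arrays and 0 of 7 D1 mutant arrays, so its D1 change is read near background.

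The difference between the effects, D2 minus D1, was tested directly. Upb1 passed with 0.80 (SE 0.12, adjusted p = 0.000572), the 1 of 5 members to do so, where 0.99% of genes passed in either direction and 0.657% upward. Its D1 levels, from 5.45 to 6.20, lie at the floor of 6, so the D1 side of this difference is read from signal near background. A D1 response of Upb1 could be hidden there, and the call does not show that the subtypes respond differently. The call did not hold when D2 mutant cocaine replicate 4 was counted as a control (0.73, adjusted p = 0.0697), though its Ehmt2 level lay among the mutants. It held when that array was left out (0.80, adjusted p = 0.00116). For Ptprm the effect was smaller in D2 than in D1 arrays by 0.27 (95% interval -0.53 to -0.01), which did not pass (adjusted p = 0.381, unadjusted p = 0.0402). The differences were -0.14 for Gpr6, -0.16 for Gucy1a1 and -0.04 for Nell1, none passing.

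**Figure D3:**
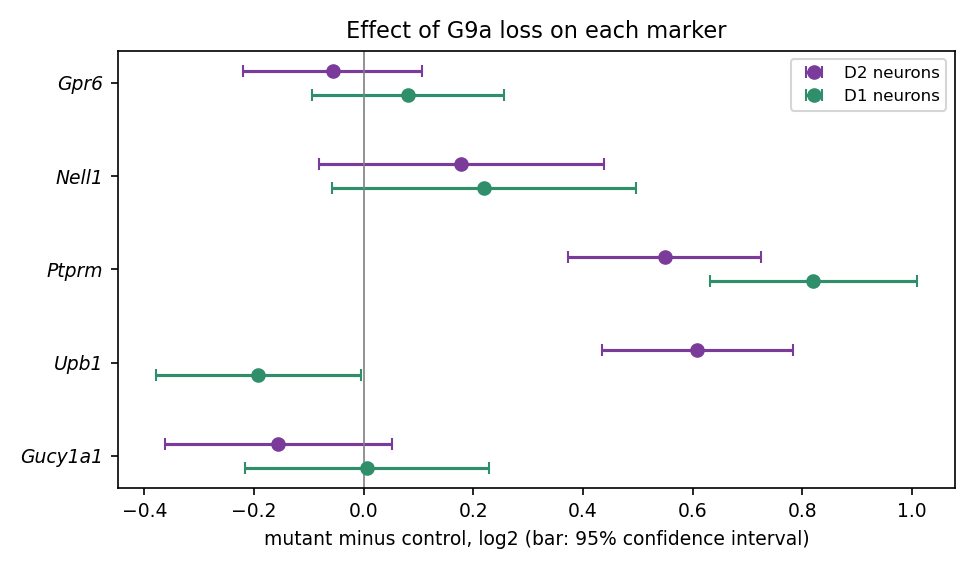
Mutant minus control on the log2 scale for each of the 5 genes, in D2 and in D1 neurons, with 95% intervals. The interval of Ptprm lies above 0 in both subtypes, that of Upb1 lies above 0 in D2 neurons, and those of Gpr6, Nell1 and Gucy1a1 hold 0 in both. The interval of Upb1 in D1 neurons, read from signal near background, lies just below 0, and its adjusted p is 0.355 (limma).

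The subtype difference of the members in controls is part of what they are named for, so it is given as a description. In controls the D2 minus D1 difference was 5.01 for Gpr6, 2.89 for Upb1, 2.89 for Nell1, 2.43 for Ptprm and 1.23 for Gucy1a1, all 5 higher in D2, where 17.1% of genes were higher at an adjusted p under 0.05. No D2 array overlapped a D1 array for any of the 5, which were named for this difference. The share of all genes tested without such overlap was not counted. D2 mutants against D1 controls gave 4.95 for Gpr6, 3.50 for Upb1, 3.07 for Nell1, 2.97 for Ptprm and 1.08 for Gucy1a1, where 26.9% of genes were higher. This comparison mixes genotype with subtype and shares the D1 controls with the one before it. The change from the values before it is therefore the D2 genotype difference given above and adds nothing to it. The D1 levels of Upb1 are at or near the floor of 6, so its differences from D1 arrays are read against background.

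The subtype difference was tested in the arrays of mutants, none of which enters the comparison of controls. The 4 members with D1 signal above the floor were all higher in D2 mutants than in D1 mutants, where 25.8% of genes were higher (42.4% in either direction, limma). Upb1 differed by 3.69, given without a test because it passed the filter through its D2 arrays and was below 6 in all 7 D1 mutant arrays. Gpr6 differed by 4.87 (SE 0.08, adjusted p = 2.86e-24) and Nell1 by 2.85 (SE 0.13, adjusted p = 3.84e-15). Ptprm differed by 2.15 (SE 0.09, adjusted p = 3.78e-16) and Gucy1a1 by 1.07 (SE 0.10, adjusted p = 7.74e-09). The members were proposed with results of this series in view, so these values are no independent evidence that they mark D2 neurons.

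**Figure D4:**
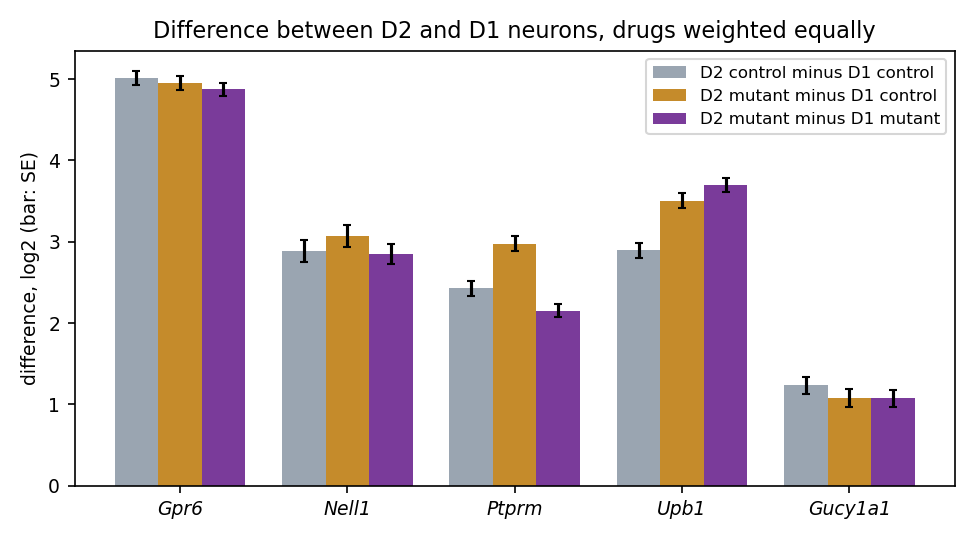
D2 minus D1 difference on the log2 scale for each of the 5 genes, in controls, in mutants, and between D2 mutants and D1 controls. All 15 values lie above 0. Upb1 has its largest difference between mutants, and Ptprm its largest between D2 mutants and D1 controls.

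Ordered over the 8 groups, each member had its 4 D2 groups above its 4 D1 groups, with a gap of 4.79 for Gpr6, 2.82 for Upb1, 2.33 for Nell1, 1.46 for Ptprm and 0.80 for Gucy1a1 between the lowest D2 and the highest D1 group mean. How many of all genes tested had such an order was not counted. Among the D2 groups, Upb1 was highest in mutants given cocaine (9.40, SD 0.17, n = 4) and mutants given saline (9.33, SD 0.04, n = 3), followed by controls given saline (8.77, SD 0.17, n = 3) and controls given cocaine (8.74, SD 0.09, n = 4). Groups of the same genotype overlapped, and the genotypes did not. Ptprm had the same order: 9.85 (SD 0.11, n = 4), 9.81 (SD 0.01, n = 3), 9.37 (SD 0.06, n = 3) and 9.19 (SD 0.19, n = 4). Its D1 mutant groups, at 7.74 and 7.62, stood apart from the D1 control groups at 6.86 and 6.85.

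For Gpr6 the highest group was the D2 controls given saline (13.01, SD 0.06, n = 3), which lay just above the D2 mutants given saline (12.87, SD 0.04, n = 3) without overlap. That difference of 0.14 did not pass within saline arrays (adjusted p = 0.666). The 3 other D2 groups of Gpr6 overlapped their neighbours in the order, as did all D2 groups of Nell1 (means from 9.82 to 10.09) and of Gucy1a1 (from 11.91 to 12.18). In D1 arrays all 4 group means of Upb1 were below 6, and mutants given saline were lowest (5.53, SD 0.07, n = 3), without overlap with the next group.

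Repeated cocaine was the other factor of the design. No member passed in any of the 6 cocaine contrasts, 0 of 30 tests, and 5 of the 30 had an unadjusted p under 0.05 in limma. Few genes passed at all: 0.133% in D2 controls, 0% in D2 mutants, 0.0666% in D1 controls and 0.0915% in D1 mutants, and 0% in both differences between genotypes. At an unadjusted p under 0.05, of 12017 genes, 1130 did so in D2 controls, 588 in D2 mutants, 1402 in D1 controls, 1412 in D1 mutants, 583 in the D2 difference and 1340 in the D1 difference. Of the 5 member tests at that level, 1 was in D1 controls, 2 were in D1 mutants and 2 in the D1 difference. In D2 controls the members changed by -0.21 (Gpr6, adjusted p = 0.584) to -0.03, and in D2 mutants by -0.16 to 0.07. In D1 mutants, where Nell1 stood at 7.94, 7.28 and 7.26 with saline and at 7.15, 7.16, 6.90 and 6.63 with cocaine, it differed by -0.53 (SE 0.18, adjusted p = 0.237). All 4 cocaine arrays lay below the saline arrays, of which replicate 1 was the high one. Gucy1a1 differed by -0.41 in D1 controls (adjusted p = 0.307) and Upb1 by 0.28 in D1 mutants (adjusted p = 0.349). All 7 D1 mutant arrays of Upb1 lay below 6, so its change there is read within background.

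The genes around the members were read from lists. Of 10 other markers of D2 neurons, 9 were tested in D2 mutants against D2 controls, and 0 rose, 2 fell and 7 did not pass. Over all genes tested 8.41% rose and 3.82% fell in this comparison. The D2 receptor gene Drd2 fell by 0.49 (adjusted p = 0.00315) and Cd4, better known as a T cell co-receptor gene, by 0.29 (adjusted p = 0.00738). Cd4 did not mark D2 neurons here: D2 minus D1 was -0.16 in controls and -0.37 in mutants (adjusted p = 0.000224, limma). Of the 2 that fell, Drd2 alone was thus higher in D2 than in D1 arrays. The enkephalin precursor gene Penk differed by less than 0.01 (adjusted p = 0.996), and Adora2a is not analysed here. The median of this list was -0.02. Of 10 markers of D1 neurons, 9 were tested, and 4 rose in D2 mutants: the transcription factor genes Zfp521 (1.04) and Isl1 (0.98), Slc35d3 (0.56) and the D1 receptor gene Drd1 (0.54), with a list median of 0.25. In D1 mutants Zfp521 alone of these 9 passed (0.25), and no tested marker of D2 neurons on this list did, with 2 of 9 at an unadjusted p under 0.05 in limma. Over all genes tested 4.22% passed in D1 mutants, and 1593 of 12017 had an unadjusted p under 0.05 in limma.

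**Figure D5:**
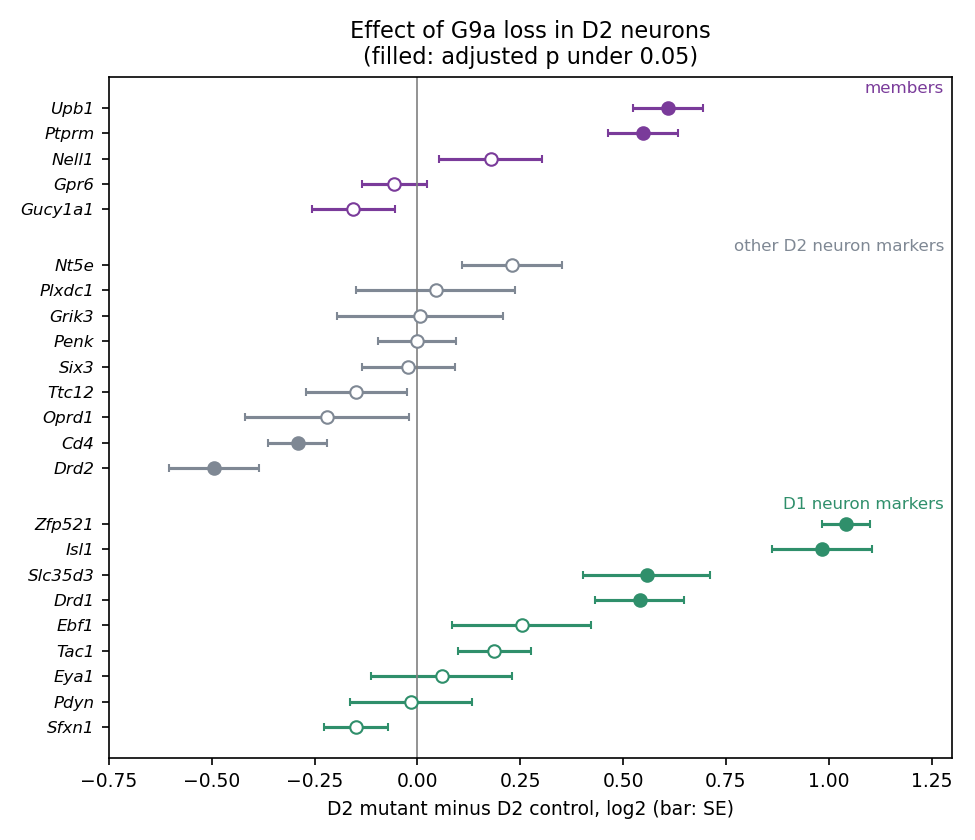
D2 mutant minus D2 control on the log2 scale, with standard errors, for the 5 genes described here (labelled members), the other D2 neuron markers and the D1 neuron markers that were tested. Filled points passed at an adjusted p under 0.05. Upb1 and Ptprm stand to the right of every other D2 marker, of which Drd2 and Cd4 fell, and 4 D1 markers rose. Cd4, though listed as a D2 marker, was lower in D2 than in D1 arrays.

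The signalling partners of the members gave few calls in D2 mutants. Over all genes tested 12.2% passed there, and 3071 of 12017 had an unadjusted p under 0.05 in limma. Of the nitric oxide and cyclic GMP genes around Gucy1a1, 10 of 11 were tested and 0 passed in limma, with 4 at an unadjusted p under 0.05 and changes from -0.24 to 0.32. Gucy1b1, the beta subunit that pairs with Gucy1a1, changed by 0.04 (adjusted p = 0.914). Of the cyclic AMP genes downstream of Gpr6, such as Adcy5 and Gnal, all 11 were tested and 0 passed in limma, with 0 at an unadjusted p under 0.05 and changes from -0.16 to 0.19. Among 12 relatives of the members 8 were tested, and Sp1, a relative of Sp9 that binds GC boxes, rose by 0.22 (adjusted p = 0.0245). It was the only 1 of the 8 to pass, beside 8.41% of all genes tested that rose. Of 6 other genes of pyrimidine breakdown, Upp2 alone was tested, at -0.08 (adjusted p = 0.637), so the pathway of Upb1 was mostly below the filter.

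By the root mean square difference of centred means over the 8 groups, the tested genes nearest to Upb1 were Lhx8 (0.28) and Nt5e (0.29). Lhx8, a transcription factor gene of cholinergic neurons, rose in D2 mutants by 1.17 (SE 0.15, adjusted p = 5.79e-06), while Nt5e, an enzyme gene that makes adenosine, differed by 0.23 (adjusted p = 0.236). Nearest to Ptprm were Necab1 (0.40) and Plxdc1 (0.40), neither of which passed. Gpr6 was closest to Grik3 (0.56) and Nt5e (0.64), Nell1 to Penk (0.26) and Plxdc1 (0.42), and Gucy1a1 to Meis1 (0.09) and Tspan4 (0.11). The distances mostly reflect the subtype gap, since it is the widest step in each profile.

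Markers of other cell types moved with the D2 genotype contrast. In bulk ribosome-bound RNA a change in the number of cells of a type and a change in RNA per cell cannot be told apart. Of 6 oligodendrocyte markers tested, 5 rose in D2 mutants (Ugt8a 0.80, Mobp 0.60, Mbp 0.54, Opalin 0.34, Cnp 0.31), and the summed linear level of the 7 with a probe set ran from 2737 to 5274 in D2 controls and from 5282 to 6949 in D2 mutants. None of the 6 passed in D1 mutants, and none had an unadjusted p under 0.05 there (limma). Over all genes tested 8.41% rose in D2 mutants and 4.22% passed in D1 mutants. Of 2 cholinergic markers tested, Lhx8 rose and Slc18a3 differed by 0.37 (adjusted p = 0.155). Chat, the defining enzyme gene, averaged between 4.45 and 4.55 in the 4 D2 groups, and 4 of the 5 markers with a probe set (Chat, Slc18a3, Slc5a7 and Gbx2) had a mean below the floor of 6 over all arrays. The cholinergic sum ran from 261 to 562.4 in D2 controls and from 580.4 to 785.8 in D2 mutants, without overlap, and Lhx8 was its only marker with a mean above the floor. With the mean of the oligodendrocyte markers as a covariate, added after the data were seen, Upb1 changed by 0.63 (adjusted p = 0.00114) and Ptprm by 0.50 (adjusted p = 0.0116). With that of the cholinergic markers they changed by 0.61 (adjusted p = 0.00581) and 0.48 (adjusted p = 0.0314). Neither summed level overlapped between D2 genotypes, so marker level and genotype cannot be well told apart in these fits. The part of these cells in the rises was not tested. Within single drugs 2 calls ended under a covariate: Upb1 with saline under the cholinergic one (0.56, adjusted p = 0.063) and Ptprm with cocaine under the oligodendrocyte one (0.58, adjusted p = 0.052).

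Single markers of other types also rose in D2 mutants, namely Gja1 of astrocytes (0.62), Nrn1 of cortical neurons (1.44), Th (1.46) and Kl of the choroid plexus (2.23). Each was the only passing marker of its list, of 6, 2, 6 and 2 tested. Of all genes tested 8.41% rose, and 3071 of 12017 had an unadjusted p under 0.05 in limma. Th and Kl also rose in D1 mutants (0.99 and 1.55). Of the microglial and the vascular markers, 2 each were tested and none passed in D2 mutants, with 1 and 0 at an unadjusted p under 0.05 (limma). Summed levels in D2 controls and D2 mutants ran from 979.4 to 1702 and 1660 to 2214 for astrocytes, and from 83.2 to 153.7 and 197.6 to 275.6 for cortical neurons. They ran from 782.3 to 1029 and 896.9 to 1518 for GABAergic interneurons, and from 117.6 to 2778 and 288.8 to 686.7 for the choroid plexus. In the cortical and choroid plexus lists 3 of 4 markers each had a mean below the floor, with Nrn1 and Ttr as the ones above it. The part of these lists in the rise of Upb1 and Ptprm was not tested. RNA quality, the 3' minus 5' difference of 2 control genes, had a median of 2.23 in D2 controls and 2.16 in D2 mutants, and with it as a covariate the changes were 0.61 for Upb1 and 0.54 for Ptprm.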

How the data were processed

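Ribosome-bound RNA was measured on 27 Affymetrix whole-genome mouse arrays. The values deposited by the authors are log2 levels for 45101 probe sets. Per the submitters' processing notes, the authors made them by robust multi-array averaging (RMA) with version 1.1 of Affymetrix Expression Console. The design text names other scanner software and a global scaling, but array medians from 5.70 to 5.82 are on a log2 scale. Background compresses low signal, so differences of genes near 6 are understated. Precision is limited by how many arrays there are.

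In the platform annotation 34945 probe sets carried 1 symbol, 932 several and 9160 none, and 64 were controls. Each gene was read from its probe set with the highest mean, and tested when that exceeded 6 in at least 3 arrays. All arrays entered 1 fit in limma 3.58.1 (R 4.3.3) with 8 group means, and the Benjamini-Hochberg adjustment ran over 12017 genes for each contrast, with 0.05 as the threshold. Contrasts weighted the drugs equally. Replicates are labelled as separate mice, and no arrays held the same values (smallest mean absolute difference 0.137). The fit was tested on simulated data.

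The members and the gene lists were chosen with earlier results of these data known. Named are the members in every contrast, the target, for each member the 2 genes with the nearest profile, and list genes that passed or that define the subtypes (the lists: other D2 and D1 neuron markers, cyclic GMP, cyclic AMP, relatives, pyrimidine breakdown, and markers of cholinergic and GABAergic interneurons, cortical neurons, astrocytes, oligodendrocytes, microglia, vascular cells and choroid plexus). Subtype differences that involve D1 controls were given with no test.

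Alternatives changed the probe set, filter, normalization, variance moderation, array weights, RNA quality covariate, replicate block, arrays in the fit and the label of 1 array, or left out arrays. Covariates for oligodendrocyte and cholinergic markers, the fit over all probe sets and the genomic neighbours were added after the data were seen.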

Additional observations from a re-analysis of the deposited data

Results flagged for a closer look

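For Gucy1a1, 3 arrays stood apart from the rest of their group of 4 by Dixon's test. D1 mutant cocaine replicate 2 had a log2 level of 11.17 and was the high one, D2 control cocaine replicate 3 had 11.90 and was the low one, and D2 mutant cocaine replicate 1 had 11.71 and was the low one. The test was made in 20 combinations of gene and group, and chance marks about 1 in 20. No array of Gpr6, Upb1, Nell1 or Ptprm was marked.

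The measured effect of G9a loss on Upb1 was higher in D2 than in D1 arrays by 0.80 on the log2 scale (adjusted p = 0.000572, limma). The difference joins a rise of 0.61 in D2 neurons to a change of -0.19 in D1 neurons that did not pass, at levels near background. It therefore does not show that the subtypes respond differently.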

How the results depend on the processing

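The calls of Upb1 and Ptprm in D2 neurons and of Ptprm in D1 neurons held under every alternative run, leaving out each array included. Those of Gpr6, Nell1, Ptprm and Gucy1a1 between the subtypes in mutants held too. These 4 were proposed as D2 markers with results of this series in view, so that is no independent evidence that they mark D2 neurons. The marker covariates among the alternatives go with genotype in D2 arrays, so the part of other cell types was not tested. Limits are 2 to 4 mice in a group, signal near background for Upb1 in D1 arrays, and 1 array whose labels conflict. The Ehmt2 level of that array lay among the D2 mutants. Where a value moved, the cause was not tested.

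With the replicate numbers as a block, 5 comparisons moved in their number of genes passing: 2350 in D2 minus D1 in mutants (5091 without), 182 in the difference of the G9a effects (119), 31 for cocaine in D1 mutants (11), 26 in D2 controls (16) and 4 in D2 mutants (0). No call of a member changed. Deviations of arrays with the same number had a median correlation of 0.0186 in D1 and -0.0072 in D2 arrays, from -0.3948 to 0.4695 over both, so the numbers were not used as pairs.

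Counting D2 mutant cocaine replicate 4 as a control left 0 members passing in the difference of the G9a effects (Upb1 0.73, adjusted p = 0.0697), 0 with saline (Upb1 0.56, adjusted p = 0.0719) and 1 with cocaine (Upb1 0.51, adjusted p = 0.066). The genes passing were then 855 for G9a loss in D2 neurons (1470 as labelled), 306 with saline (490), 281 with cocaine (951), 18 in the difference (119) and 1 for cocaine in D2 mutants. Leaving that array out gave 5 genes for cocaine in D1 controls, 10 in D2 controls and 3 in D2 mutants.

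With saline, 2 members passed in place of 1 because Ptprm did too: with the RNA quality covariate (0.48, adjusted p = 0.0166), array weights (0.45, adjusted p = 0.00753), arrays of the subtype alone (0.44, adjusted p = 0.026), high-Ttr arrays left out (0.44, adjusted p = 0.0357) and cyclic loess (0.43, adjusted p = 0.0497). With the cholinergic covariate 0 passed with saline, and the genes passing were 299 with saline and 795 over both drugs. With the oligodendrocyte covariate 1 member passed with cocaine, and the genes passing were 610 over both drugs, 258 with cocaine and 74 in the difference. Under its largest-variance probe set, Gucy1a1 fell with cocaine in D2 mutants against controls (-0.74, adjusted p = 0.024).

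Array weights raised the genes passing to 2293 for G9a loss in D2 neurons, 1069 with saline, 969 in D1 neurons (507) and 352 in the difference. For cocaine they gave 461 in D1 controls (8), 218 in D1 mutants, 124 in D2 controls, 10 in D2 mutants and 54 in the D1 difference (0), and 1 member then passed, Upb1 in D1 mutants (0.36, adjusted p = 0.0408). All 7 D1 mutant arrays of Upb1 lay below the floor of 6, so that change is read within background. For cocaine in D1 controls the count was 0 with the RNA quality covariate or the subtype alone, 69 without high-Ttr arrays, 2 with cyclic loess, 20 with a filter at 7, 5 with median centring, 4 without filter and 17 with a variance trend. In D1 mutants it was 7 with the subtype alone and 6 with cyclic loess or the largest-variance probe set, and cyclic loess gave 5 in the D1 difference. In D2 controls it was 60 with the RNA quality covariate, 6 with the subtype alone, 9 without high-Ttr arrays or without filter, 7 with median centring and 4 with the largest-variance probe set. In D2 mutants it was 1 with the subtype alone and 2 without high-Ttr arrays.

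Small differences that did not pass changed sign under some alternatives, and none of these passed there. For Gpr6, G9a loss in D2 neurons became 0.047 with the cholinergic covariate, and with cocaine -0.014 with the relabelled array, -0.022 without high-Ttr arrays, -0.047 with cyclic loess and -0.16 with the oligodendrocyte covariate. Its cocaine changes became 0.024 in the D1 difference (array weights) and 0.017 in D1 controls (block). For Gucy1a1, G9a loss in D1 neurons became -0.052 with array weights, -0.026 without high-Ttr arrays, -0.011 with cyclic loess, -0.0076 with the oligodendrocyte covariate and -0.076 with the largest-variance probe set, which gave 0.19 in D2 neurons with saline. Its cocaine changes became 0.018 in the D2 difference (array weights). In D1 mutants they became -0.039 (RNA quality), -0.045 (high-Ttr arrays left out) and -0.10 (cyclic loess), and in D2 controls 0.014, 0.019 and 0.30 (high-Ttr arrays left out, cyclic loess, largest-variance probe set). Nell1 became 0.051 in the difference of the G9a effects and 0.011 for cocaine in D2 mutants (array weights). For cocaine in D1 controls Ptprm became -0.18 (RNA quality), -0.0083 (median centring) and -0.0012 (block), and Upb1 0.0295 (RNA quality). With the relabelled array Upb1 became -0.042 in the D2 cocaine difference and 0.10 in D2 controls.

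Leaving out each array gave 319 to 549 genes for G9a loss in D1 neurons (lowest without D1 control saline replicate 1). It gave 1114 to 1675 genes in D2 neurons, 303 to 362 with saline, 542 to 1150 with cocaine (lowest without D2 control cocaine replicate 1) and 50 to 139 in the difference (lowest without D1 control saline replicate 1). It gave 0 to 1 members with saline, where Upb1 ran from 0.46 to 0.61. For cocaine it gave 0 to 70 genes in D1 controls, 3 to 42 in D1 mutants, 2 to 48 in D2 controls, 0 to 5 in D2 mutants, 0 to 7 in the D1 difference and 0 to 1 in the D2 difference. Ranges that crossed 0 were -0.088 to 0.13 (Gpr6, G9a loss in D2 neurons with cocaine), -0.087 to 0.099 (Gucy1a1, G9a loss in D1 neurons) and -0.12 to 0.0695 (Nell1, difference of the effects). For cocaine they were -0.11 to 0.0035 (Gpr6, D1 difference), -0.041 to 0.049 (Gpr6), -0.073 to 0.25 (Nell1) and -0.11 to 0.093 (Ptprm) in D1 controls, and -0.073 to 0.039 (Gucy1a1) in D1 mutants. In D2 controls they were -0.0897 to 0.014 (Gucy1a1) and -0.13 to 0.018 (Upb1), and in D2 mutants -0.085 to 0.022 (Nell1) and -0.016 to 0.065 (Ptprm).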

Other observations

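The genes next to the members in RefSeq's gene order were read in D2 mutants against D2 controls, up to 3 tested genes on each side. They were looked at after the values of the members were seen. Upb1 and Ptprm rose without their neighbours: of 6 neighbours of Upb1, Rab36, a vesicle traffic GTPase gene, fell by 0.24 (adjusted p = 0.00898, limma) and the other 5 did not pass, and none of the 6 around Ptprm passed, with changes from -0.13 to 0.08. Around Gucy1a1, which did not pass, 3 of 6 neighbours rose, namely the growth factor gene Pdgfc (0.51, adjusted p = 0.00831), the protease gene Ctso (0.35, adjusted p = 0.0333) and the neuropeptide Y receptor gene Npy2r (0.66, adjusted p = 0.0072). Gucy1b1, directly beside Gucy1a1, changed by 0.04 (adjusted p = 0.914). Around Gpr6, Mettl24 rose by 0.91 (adjusted p = 1.45e-05) and the other 5 did not pass. None of the 6 neighbours of Nell1 passed. Over all genes tested 12.2% passed in this comparison.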
